A study of Mus musculus with 6 samples.

Results

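The 10 genes described here are Ly6a, which encodes the surface antigen Sca-1, its neighbors Ly6e and Ly6c1, and 7 genes used as markers of fibro-adipogenic progenitors (FAPs), namely Pdgfra, Pdgfrb, Dcn, Lum, Dpt, Gsn, and Clec3b. They were taken by gene symbol from the 49671 genes in the files. The set was selected on earlier results of the comparison of RvD1 with vehicle in these same libraries, among them the difference in Ly6a, so the differences between groups given here are descriptions and were not used as tests of the set.

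FAPs are mesenchymal cells that lie between myofibers, multiply after injury, and lay down extracellular matrix. They are usually recognized by Sca-1 together with the PDGF receptor alpha, whereas muscle stem cells (MuSCs) are sorted from digested muscle as cells without Sca-1. Sca-1 is a small protein held in the membrane by a lipid anchor, and it is also carried by endothelial cells and by some leukocytes.

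RNA-Seq libraries were made from MuSCs of female C57BL/6 mice aged 4 to 6 months, 3 treated with resolvin D1 (RvD1), a lipid mediator derived from an omega-3 fatty acid, and 3 with vehicle. Every mouse received an injection of 1.2% BaCl2, which damages muscle fibers, with 50 μL given into each tibialis anterior (TA) muscle, and both TA muscles of a mouse were pooled at day 3. RvD1 was injected IP at 100 ng per day over 72 hours, and control mice were given 0.1% ethanol. Each library is 1 mouse, and uninjured MuSCs were not analysed here. Cells were collected by FACS as positive for CXCR4 and β1-integrin and negative for Sca-1, CD45, CD11b, and Ter119, and the sample labels add CD31, an endothelial antigen, to the negative markers while the study's methods do not.

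Libraries held 16148026 to 28149176 expected counts, which are the counts that the RSEM program assigns to a gene after dividing reads that match several genes. Of the 12 MuSC and myoblast markers, all were present, led by Myog at 818 to 1378 TPM, the abundance that RSEM gives relative to transcript length and library size. The sorting markers Itgb1 (443.8 to 524 TPM) and Cxcr4 (11.7 to 29.8 TPM) were present, and Ptprc (CD45) and Itgam (CD11b) did not exceed 1.13 TPM. RvD1 replicate 1 stood apart from the other libraries. The chi-square per degree of freedom of its gene counts was 26.8 to 58.1 against each of them, compared with 6.28 to 15.97 among the other 10 pairs. Results that rest on it are given with and without it.

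In TPM, which allows for transcript length, Ly6e was the most abundant of the 10 genes, with a mean of 372 over the 6 libraries. Gsn followed at 304 and Dcn at 257, and the ranges of these genes over the libraries overlapped. A gap of 6.99-fold separated Dcn from Lum at 36.8 TPM, and the ranges of Dcn and Lum did not overlap. Lum, Ly6a (26.9), Pdgfrb (16.3), Ly6c1 (16.3), Dpt (4.86), and Pdgfra (2.72) formed a graded series in which each gene overlapped the next. Clec3b was lowest at 0.147 TPM, 18.5-fold under Pdgfra and outside its range. The usual marker of FAPs, Pdgfra, was thus near the bottom of the list, at percentile 57.7 of all genes with any TPM, whereas Dcn was at percentile 97.2.

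**Figure D1:**
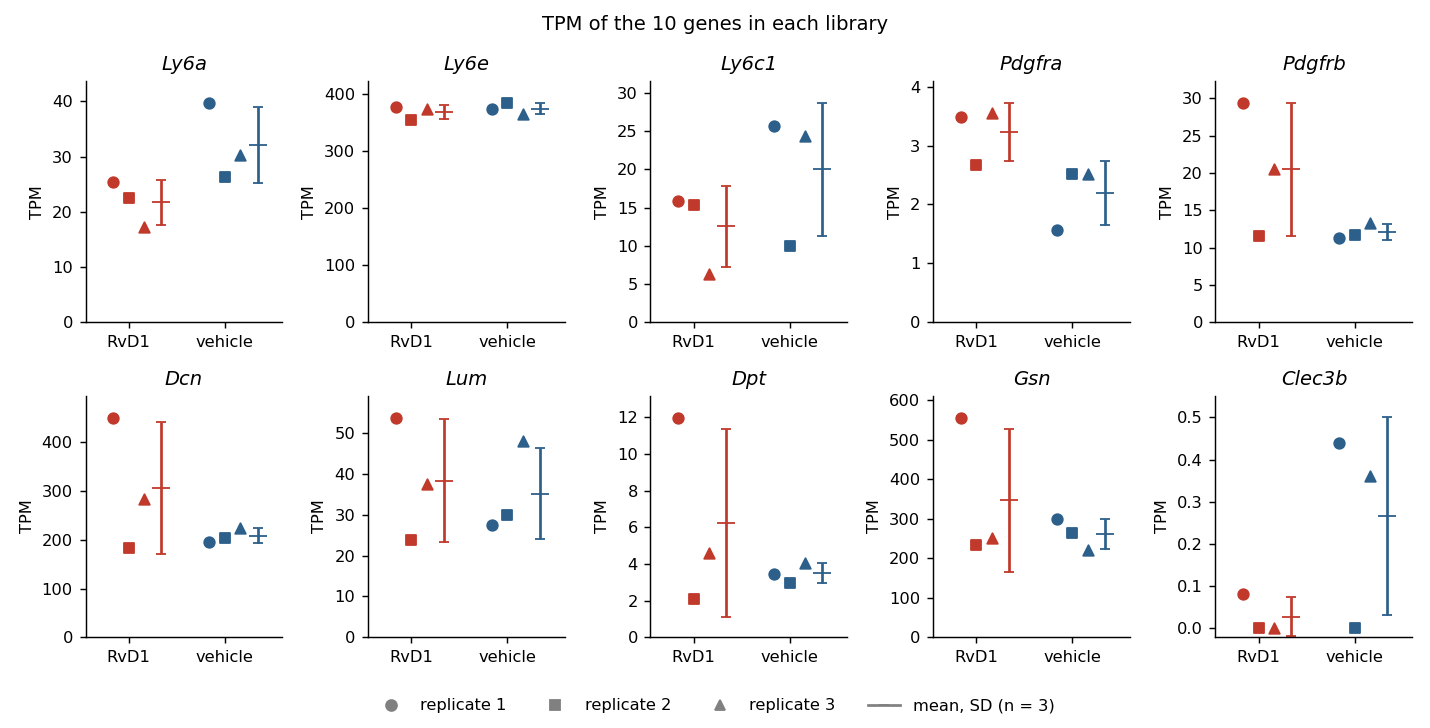
Level of each of the 10 genes in TPM (vertical axes, linear and drawn to 0) in the 3 RvD1 and 3 vehicle libraries, with the mean and SD of each group (n = 3). The circle for RvD1 replicate 1 is the highest point for Pdgfrb, Dcn, Lum, Dpt, and Gsn, and the red points lie below the blue points for Ly6a.

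Ly6a (ENSMUSG00000075602, minus strand of chromosome 15, 74994877 to 74998031 on GRCm38) was present in every library although cells with surface Sca-1 were gated out. Its TPM was 25.4, 22.4, and 17.3 with RvD1 and 39.7, 26.3, and 30.3 with vehicle, given here and elsewhere in the order of replicates 1, 2, and 3. All RvD1 libraries lay below all vehicle libraries, with a gap of less than 1 TPM between RvD1 replicate 1 and vehicle replicate 2. The group means were 21.7 ± 4.14 TPM with RvD1 and 32.1 ± 6.89 TPM with vehicle (SD, n = 3). The counts fitted with edgeR gave a log2 fold change of −0.62 with a standard error of 0.20, or 1.54-fold lower with RvD1. Leaving out 1 library at a time gave −0.74 to −0.48, and the value without RvD1 replicate 1 was −0.74. In bulk RNA, fewer cells of a type that carries Ly6a and less Ly6a RNA per cell cannot be told apart.

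Ly6c1 (ENSMUSG00000079018, minus strand of chromosome 15, 75044018 to 75048830) encodes Ly-6C1, an antigen carried by endothelial cells among other cells. It was at 15.9, 15.3, and 6.38 TPM in the RvD1 libraries and at 25.6, 9.99, and 24.3 TPM in the vehicle libraries. The groups overlapped, because vehicle replicate 2 lay below 2 of the RvD1 libraries. Its log2 fold change of −0.75 (standard error 0.41) ranged from −1.06 to −0.44 when 1 library was left out. The spread within each group was wide, with a coefficient of variation of 42.6% for RvD1 and 43.4% for vehicle, compared with 19.1% and 21.5% for Ly6a.

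Ly6a and Ly6c1 are related in sequence, and their counts are not independent. The last 90 coding bases of each gene before the stop codon, all in the last coding exon, are shown to make this visible. They were read from the GENCODE M21 transcripts and lie at chr15:74995265-74995354 for Ly6a and chr15:75045405-75045494 for Ly6c1, minus strand, GRCm38. Capitals mark the longest run that both coding sequences share, 48 bases, and the flanks differ at 5 positions.
Ly6a: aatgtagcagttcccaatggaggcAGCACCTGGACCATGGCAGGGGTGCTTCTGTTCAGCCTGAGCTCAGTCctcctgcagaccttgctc
Ly6c1: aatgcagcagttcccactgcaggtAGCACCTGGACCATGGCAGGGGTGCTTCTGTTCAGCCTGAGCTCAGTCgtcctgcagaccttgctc
This run is shorter than a 76-base read. Over all their annotated transcripts, 72 of the 1311 different 76-base windows of Ly6a (5.49%) also occur in Ly6c1, and 59 of the 72 include coding bases. Another 5 windows of Ly6a occur in Ly6i, and 0 occur in Ly6c2 or in Ly6e. Ly6c1 shares 255 of its 1764 windows with Ly6c2.

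The division of shared reads is visible in the files. The expected counts of Ly6a were not whole numbers in 5 of the 6 libraries, and those of Ly6c1 were not whole in 5, whereas Ly6e, Pdgfrb, Dcn, Lum, Dpt, Gsn, and Clec3b had whole counts in all 6. Added together, Ly6a, Ly6c1, Ly6c2, and Ly6i gave exactly 413, 493, and 192 counts with RvD1 and 494, 309, and 495 with vehicle, in the order of replicate number. Ly6c2 and Ly6i, which were named after their values were seen, contributed at most 5.62 and 1.02 counts. Ly6c1 made up almost all of the remainder, and the share of Ly6a in the counts of Ly6a and Ly6c1 ranged from 56.3% in vehicle replicate 3 to 73.3% in RvD1 replicate 3. This share was not ordered by group, with 72.2% in vehicle replicate 2 and 59.9% to 62.7% in RvD1 replicates 2 and 1.

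**Figure D2:**
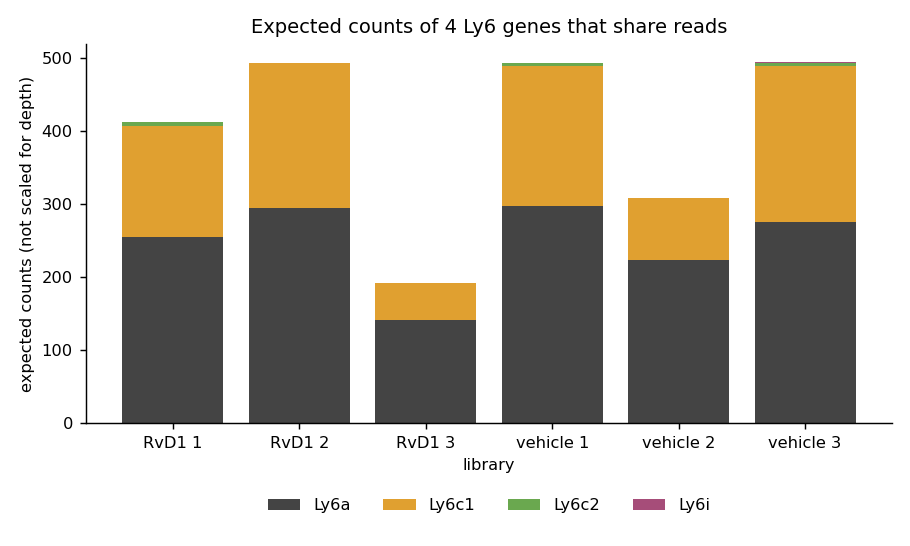
Stacked bars of the expected counts of Ly6a, Ly6c1, Ly6c2, and Ly6i (vertical axis, from 0, not scaled for depth) in each of the 6 libraries. The bars end at whole numbers from 192 in RvD1 replicate 3 to 495 in vehicle replicate 3, and Ly6c2 and Ly6i are barely visible on top.

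Ly6e (ENSMUSG00000022587, plus strand of chromosome 15, 74955051 to 74959905) encodes a Ly6 protein that is induced by interferon and is widely expressed. It shared no 76-base window with Ly6a and was the steadiest of the 9 genes with counts in every library, with 1.13-fold between its highest and lowest CPM. It was at 378, 354.9, and 374 TPM with RvD1 and at 373, 384, and 365 TPM with vehicle. In TPM the groups overlapped, with means of 369 ± 12.3 and 374 ± 9.63 (SD, n = 3). In CPM (counts scaled to a common library total with edgeR's TMM factors), the RvD1 libraries ranged from 223 to 227 and the vehicle libraries from 237 to 252, so that they did not overlap. On counts the log2 fold change was −0.12, with a standard error of 0.08, and on the scale of log2(TPM + 1) it was −0.02.

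Of 18 further Ly6-related genes on the same cluster, 17 were found in the files and 9 of them had less than 1 count in every library. Only Lynx1 and Gpihbp1 had enough counts for the edgeR fit. Lynx1, which modulates nicotinic receptors, was at 1.93 to 4.07 TPM. Gpihbp1, which anchors lipoprotein lipase on capillary endothelium, was at 0.72, 1.79, and 0 TPM with RvD1 and at 1.78, 0.24, and 2.34 TPM with vehicle. As with Ly6c1, RvD1 replicate 3 and vehicle replicate 2 were its lowest libraries. None of the genes was called. Among 18 interferon-stimulated genes, led by Ifitm3 at 976 to 1360 TPM, 9 had a log2 fold change above 0 and 9 below, with a median of −0.05. Without RvD1 replicate 1, all 18 were below 0, with a median of −0.26. Without vehicle replicate 1, 12 were above 0 and 6 below, with a median of 0.18, so the direction depended on the library left out.

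Pdgfra and Pdgfrb encode the receptor tyrosine kinases for platelet-derived growth factors. Pdgfra marks FAPs, and Pdgfrb marks pericytes as well as FAPs. Pdgfra (ENSMUSG00000029231, chromosome 5, 75152292 to 75198215) was at 3.48, 2.67, and 3.55 TPM with RvD1 and at 1.57, 2.51, and 2.52 TPM with vehicle. In TPM every RvD1 library lay above every vehicle library. In TMM-scaled CPM the groups overlapped, since RvD1 replicate 2 (9.06) lay below vehicle replicates 2 (10.1) and 3 (10.5). Exons of 3 other annotated genes, 2 of them on the opposite strand, overlap 652 of its 10024 exon bases, and reads from those genes may be counted here. Its log2 fold change was 0.44 (standard error 0.26), and 0.22 when vehicle replicate 1, the lowest library, was left out. Pdgfra was thus opposite in sign to Ly6a, although both are used to define the same cells.

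Pdgfrb (ENSMUSG00000024620, chromosome 18, 61045150 to 61085061) was at 29.4, 11.6, and 20.5 TPM with RvD1 and at 11.3, 11.7, and 13.4 TPM with vehicle. RvD1 replicates 1 and 3 lay above all vehicle libraries and RvD1 replicate 2 lay among them. The means were 20.5 ± 8.89 TPM with RvD1 and 12.1 ± 1.08 TPM with vehicle (SD, n = 3), so that nearly all of the spread was among RvD1 libraries. For Pdgfrb the log2 fold change was 0.66 (standard error 0.27). Leaving out RvD1 replicate 1 gave 0.32, and leaving out RvD1 replicate 2 gave 0.93.

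The 4 ligands of these receptors were all in the fit, 3 above 0 and 1 below, with a median log2 fold change of 0.06. Pdgfa, which encodes a ligand of PDGF receptor alpha, was the most abundant. It was at 93.1, 83.2, and 75.6 TPM with RvD1 and at 89.5, 90.1, and 90.4 TPM with vehicle, and its log2 fold change was −0.20 (standard error 0.10). On TMM-scaled CPM, 1 of the 4 ligands, Pdgfa, was lower with RvD1 without overlap, against 4.83% of all genes. Pdgfb was at 4.59 to 7.56 TPM and its log2 fold change was 0.07 (standard error 0.22). Neither was called. When RvD1 replicate 1 was left out, 2 of the 4 ligands were above 0.

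Dcn and Lum encode decorin and lumican, small leucine-rich proteoglycans that bind collagen fibrils, and they are neighbors on chromosome 10. Dcn (ENSMUSG00000019929, 97479609 to 97518143) was at 450.3, 182, and 284 TPM with RvD1 and at 196, 203, and 225 TPM with vehicle. The vehicle libraries lay between the lowest and the second RvD1 library. The means were 306 ± 135 TPM with RvD1 and 208 ± 15.3 TPM with vehicle (SD, n = 3). The log2 fold change of 0.46 (standard error 0.26) was 0.09 when RvD1 replicate 1 was left out and 0.71 when RvD1 replicate 2 was.

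Lum (ENSMUSG00000036446, 97565128 to 97572703) was at 53.7, 23.8, and 37.5 TPM with RvD1 and at 27.6, 29.9, and 48.0 TPM with vehicle. The groups overlapped across nearly their whole range, and vehicle replicate 3 was almost as high as RvD1 replicate 1. Lum had almost no difference between group means, with 0.02 on the log2 scale (standard error 0.29), and the sign was not stable, being −0.28 without RvD1 replicate 1 and 0.33 without vehicle replicate 3.

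Among 15 other proteoglycans of this family, 12 were in the fit, 9 above 0 and 3 below, with a median log2 fold change of 0.52. Without RvD1 replicate 1 the count was 4 above and 8 below, with a median of −0.05. Fmod (fibromodulin) was at 275, 57.1, and 124 TPM with RvD1 and at 84.3, 63.9, and 85.8 TPM with vehicle, the same order of RvD1 libraries as for Dcn. Bgn (biglycan) was at 147, 58.5, and 82.7 TPM with RvD1 and at 76.2, 66.8, and 74.9 TPM with vehicle. Neither was called, and RvD1 replicate 1 was highest and RvD1 replicate 2 lowest for both.

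Dpt (ENSMUSG00000026574, chromosome 1, 164796644 to 164824266) encodes dermatopontin, a matrix protein that interacts with decorin. It was at 12.0, 2.08, and 4.61 TPM with RvD1 and at 3.46, 2.96, and 4.05 TPM with vehicle. RvD1 replicate 1 was far above the rest, at 2.56 times the CPM of the next library, and the 2 other RvD1 libraries lay on either side of the vehicle libraries. A log2 fold change of 0.73, with a standard error of 0.53, became −0.16 without RvD1 replicate 1. With 5.43-fold between its highest and lowest CPM, Dpt varied most of the 9 genes that had counts in every library.

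Gsn (ENSMUSG00000026879, chromosome 2, 35256380 to 35307892) encodes gelsolin, which severs actin filaments and has both a cytoplasmic and a secreted form. It is abundant in FAPs, and muscle cells also express it. It was at 555, 234, and 251 TPM with RvD1 and at 299, 262, and 221 TPM with vehicle. Apart from RvD1 replicate 1, the libraries of both groups lay between 221 and 299 TPM. In the fit Gsn was at 0.23 on the log2 scale (standard error 0.27), and at −0.21 when RvD1 replicate 1 was left out. Of 7 relatives of gelsolin, 5 were in the fit, 4 above 0 and 1 below, with a median of 0.02, and without RvD1 replicate 1 the count was 2 above and 3 below. Flii was at 121 to 149.6 TPM and Capg at 109 to 157 TPM, with log2 fold changes of 0.02 and 0.01 (standard errors 0.10 and 0.13).

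Clec3b (ENSMUSG00000025784, chromosome 9, 123150946 to 123157432) encodes tetranectin, a plasminogen-binding lectin. RvD1 libraries had 1, 0, and 0 counts of it, and vehicle libraries had 4, 0, and 4. At a floor of 3 counts, which stands for counting error only and equals 0.107 to 0.186 CPM in these libraries, 4 of the 6 libraries were under the floor. It did not pass the count filter of the main fit, and no fold is given. Alternatives without that filter included it and did not call it.

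Across the 10 genes, 9 passed the count filter of edgeR's quasi-likelihood test, and 0 of the 9 had an adjusted p under 0.05. Among all 14494 genes in the fit the share was 0%, and the smallest adjusted p was 0.971. At an unadjusted p under 0.05, edgeR gave 2 of the 9 genes, Pdgfrb higher and Ly6a lower, where the shares over all genes were 1.83% higher and 1.64% lower. DESeq2 and limma also gave 0 of the genes past an adjusted p of 0.05. Since this contrast had been used in selecting the genes, nothing is read from these counts.

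By direction, 6 of the 9 genes had a log2 fold change above 0 and 3 below, all 3 of them Ly6 genes. The median was 0.23, and over all genes it was 0.01, with 53.5% above 0. On TMM-scaled CPM, the groups did not overlap for 0 genes in the direction higher with RvD1, against 4.8% of all genes, and for 2 in the direction lower, Ly6a and Ly6e, against 4.83% of all genes. In TPM there was 1 in each direction, Pdgfra higher and Ly6a lower, against 8.89% and 2.52% of all genes. With RvD1 replicate 2 left out, a setting chosen after seeing the data, 4 genes were higher without overlap (Pdgfra, Pdgfrb, Dcn, and Dpt), against 12% of all genes. With vehicle replicate 2 left out, Ly6c1 joined Ly6a and Ly6e as lower without overlap, against 7.43% of all genes. Without RvD1 replicate 1, 3 of the 9 genes were above 0 and 6 below, and the median was −0.16.

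**Figure D3:**
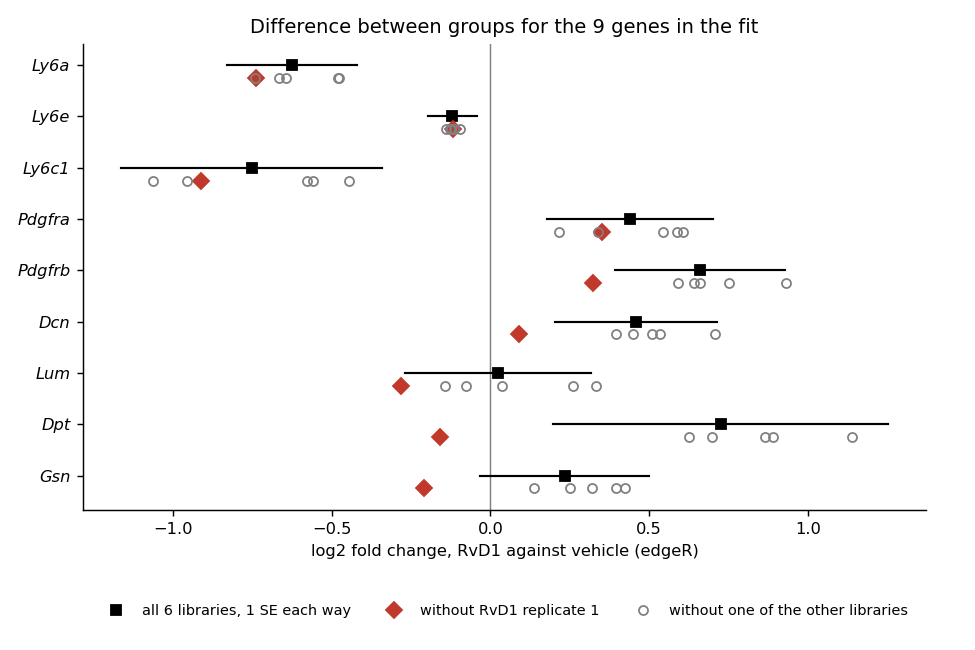
Log2 fold change of RvD1 against vehicle from edgeR (horizontal axis) for the 9 genes with enough counts, with black squares and bars of 1 standard error for all 6 libraries. The red diamonds, without RvD1 replicate 1, sit below 0 for Lum, Dpt, and Gsn and at 0.09 for Dcn, while Ly6a stays between −0.74 and −0.48 whichever library is left out.

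The order of libraries was similar for most matrix genes and different for the Ly6 genes. RvD1 replicate 1 was the highest library for 5 of the 10 genes in CPM (Pdgfrb, Dcn, Lum, Dpt, and Gsn), and RvD1 replicate 2 alone was the lowest for 5 (Ly6e, Dcn, Lum, Dpt, and Gsn). The ratio of Dcn to Pdgfrb in TPM ranged only from 13.9 to 17.4, although the genes spanned 2.33-fold and 2.47-fold in CPM. Within this narrow range the groups did not overlap, with 13.9 to 15.7 with RvD1 and 16.9 to 17.4 with vehicle. Such ratios were not computed over all genes. The ratio of Dcn to Ly6a ranged from 4.93 in vehicle replicate 1 to 17.7 in RvD1 replicate 1, a span of 3.59-fold. It was 16.5 in RvD1 replicate 3 and 8.12 in RvD1 replicate 2, against 4.93 to 7.72 with vehicle. The ratio of Ly6a to Ly6c1 ranged from 1.25 to 2.70 and did not separate the groups.

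**Figure D4:**
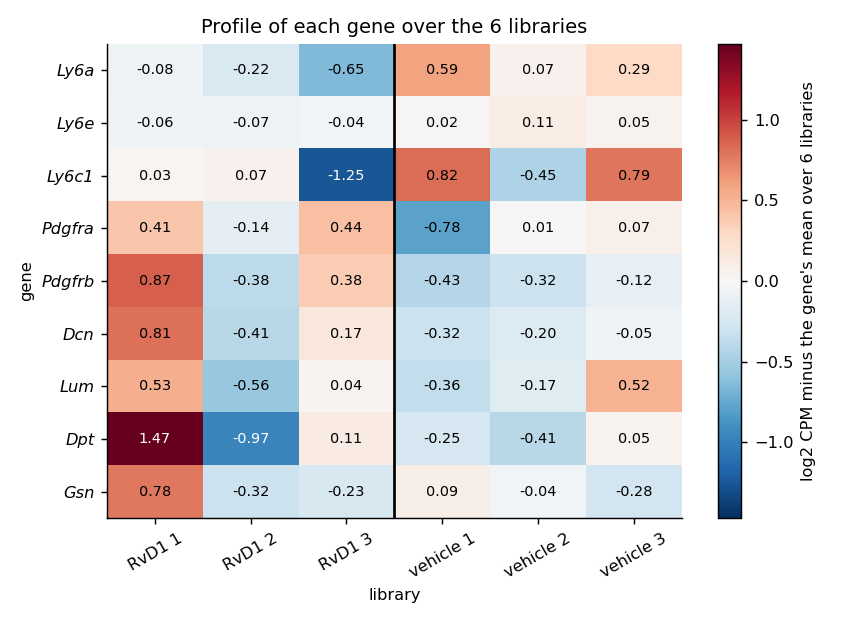
Heat map of log2 CPM minus the mean of each gene over the 6 libraries (color, log2 units) for 9 genes (rows) and 6 libraries (columns, RvD1 left of the line). Pdgfrb, Dcn, Lum, Dpt, and Gsn are at 0.53 to 1.47 in RvD1 replicate 1 and at −0.97 to −0.32 in RvD1 replicate 2, and Ly6c1 is at −1.25 in RvD1 replicate 3.

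The genes closest in profile were found among 11941 genes by the Euclidean distance of centered log2 CPM over the 6 libraries. For Ly6a these were Serp2, A630072M18Rik, Gm12396, Borcs6, and Zfp708, at distances of 0.36 to 0.41, where the median over all genes was 1.04. None of them is a FAP marker used here. Ly6e ranked 1658 and Ly6c1 4492 in distance from Ly6a, and Pdgfra, Pdgfrb, Dcn, Lum, Dpt, and Gsn ranked between 9539 and 11824. Profiles were not scaled, so a gene that varied little, such as Ly6e, could rank nearer than one that varied more, such as Ly6c1. For Dcn the closest were Lox, Edil3, and Gas6, at 0.17 to 0.19, and Pdgfrb ranked 10. Lox, which encodes the enzyme that starts the cross-linking of collagen, was at 159, 65.2, and 107 TPM with RvD1 and at 71.9, 68.1, and 73.8 TPM with vehicle. For Pdgfra the closest were Ccnd2, Arntl2, and Mbp, at 0.34 to 0.40, and Pdgfrb ranked 229. Dcn ranked 292 and Lum 921 in distance from Pdgfra. Gsn (rank 9198, distance 1.22) and Dpt (rank 11181, distance 1.51) lay beyond the median distance of 1.08. Ly6e ranked 4799, Ly6a 11677, and Ly6c1 11884. With 6 libraries these distances describe the profiles only.

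The summed TPM of the 10 genes was 1523, 849, and 999 with RvD1 and 978, 933, and 935 with vehicle. RvD1 replicate 1 was highest, and the 2 other RvD1 libraries lay on either side of the vehicle libraries. The log2 ratio of the means was 0.24 with all libraries and −0.04 without RvD1 replicate 1. Ly6e, Gsn, and Dcn made up most of each sum. Without the Ly6 genes and Gsn, the sum was 549, 222, and 350.2 with RvD1 and 240.2, 249.96, and 293 with vehicle, a log2 ratio of 0.52. This ratio was 0.13 without RvD1 replicate 1 and 0.78 without RvD1 replicate 2, settings added after seeing the data. Dcn made up most of this smaller sum, at 450.3, 182, and 284 TPM with RvD1 and 196, 203, and 225 TPM with vehicle. The genes left in it are not particular to FAPs either, since Pdgfrb also marks pericytes.

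Of 38 other genes that are prominent in FAPs, 36 were in the fit, 30 above 0 and 6 below, and 0 were called. Their median log2 fold change was 0.31, and 3 of the 36 did not overlap between groups, all higher with RvD1, against 4.8% of all genes. Without RvD1 replicate 1 they divided into 18 above and 18 below with a median of −0.0031. Col3a1, a fibrillar collagen, was at 806, 401, and 527 TPM with RvD1 and at 528, 456.5, and 459 TPM with vehicle. Gpx3, a secreted glutathione peroxidase, was at 1361, 268, and 278 TPM with RvD1 and at 464, 351, and 263 TPM with vehicle. Both had their highest level in RvD1 replicate 1 and overlapped otherwise. The summed TPM of the 38 genes was 5095, 2305, and 2792 with RvD1 and 2489 to 2821 with vehicle. Pi16 and Tcf21, chosen after their values were seen, were the only genes of the list outside the fit, at no more than 0.91 and 0.17 TPM.

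The marker lists of tenocytes, of pericytes and smooth muscle, and of Schwann cells had their highest sums in the same library as most matrix genes. All 8 tenocyte markers were above 0 (median 0.63), and their summed TPM was 1338, 447, and 814 with RvD1 and 500.3 to 558 with vehicle. Thbs4, a thrombospondin of tendon, led this list at 263 to 692 TPM. All 12 pericyte and smooth muscle markers were above 0 (median 0.25), led by Acta2, with a summed TPM of 715, 373, and 549.95 with RvD1 and 409 to 519 with vehicle. The 7 Schwann cell markers in the fit were also above 0 (median 0.64), with sums of 154, 52.2, and 57.4 against 35.8 to 74.6. Egr2 led this list and was a large part of its sums, at 96.5, 24.6, and 22.8 TPM with RvD1 and 47.3, 26.6, and 15.4 with vehicle. Of the fitted markers in these lists, 0 of 8, 1 of 12, and 2 of 7 did not overlap between groups, all higher with RvD1, against 4.8% of all genes. Without RvD1 replicate 1, the highest library for all 3 sums, 6 of 8, 10 of 12, and 5 of 7 markers were above 0, with medians of 0.15, 0.09, and 0.23. None of these lists had a called gene or a marker at 0 in all libraries, and their part in the matrix genes' levels was not tested.

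Lists of endothelial cells, leukocytes, and erythroid cells had most of their fitted genes below 0, as the 3 Ly6 genes had. Of 12 endothelial markers, 10 were below 0, with a median log2 fold change of −0.90. Their summed TPM was 30.9, 22.0, and 24.2 with RvD1 and 28.4, 14.4, and 42.8 with vehicle, led by Egfl7 at 3.58 to 9.9 TPM. The groups overlapped, and without vehicle replicate 3 the markers divided into 6 above and 6 below with a median of −0.07. Pecam1, which encodes CD31, was at 1.43, 1.36, and 0.25 TPM with RvD1 and at 3.14, 0.78, and 3.61 TPM with vehicle. Like Ly6c1, it was lowest in RvD1 replicate 3 and next lowest in vehicle replicate 2, and its 2 highest libraries were vehicle replicates 1 and 3. All 12 markers were below 0 without RvD1 replicate 1, with a median of −0.86. Tie1, chosen after its values were seen, was at 0 in RvD1 replicate 3.

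Of 16 leukocyte markers, 15 were in the fit, 14 of them below 0, with a median log2 fold change of −0.43, and 4 of the 15 did not overlap, all lower with RvD1, against 4.83% of all genes. Their summed TPM was 79.4, 50.5, and 49.9 with RvD1 and 100.01, 68.8, and 114 with vehicle. Lyz2, the lysozyme of myeloid cells, was the most abundant, at 34.3, 18.4, and 17.6 TPM with RvD1 and at 49.0, 27.6, and 61.1 TPM with vehicle. Vehicle replicate 2 was the lowest vehicle library for this sum, as it was for Ly6a and Ly6c1. Without RvD1 replicate 1, 14 of 15 were below 0, with a median of −0.60. Leaving out RvD1 replicate 3 gave 11 below and 4 above. With 1 library left out, the median ranged from −0.61 to −0.30. The T cell marker Cd3e, chosen after its values were seen, was near 0, at no more than 0.11 TPM. The part of endothelial cells and leukocytes in the levels of Ly6a and Ly6c1 was not tested. The 3 erythroid genes in the fit were all below 0 (median −0.43), led by Hba-a2 at 6.22 to 43.8 TPM, whereas 4 of the 5 that could be fitted without RvD1 replicate 1 were above 0. The MuSC and myoblast markers divided into 7 above and 5 below (median 0.05).

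**Figure D5:**
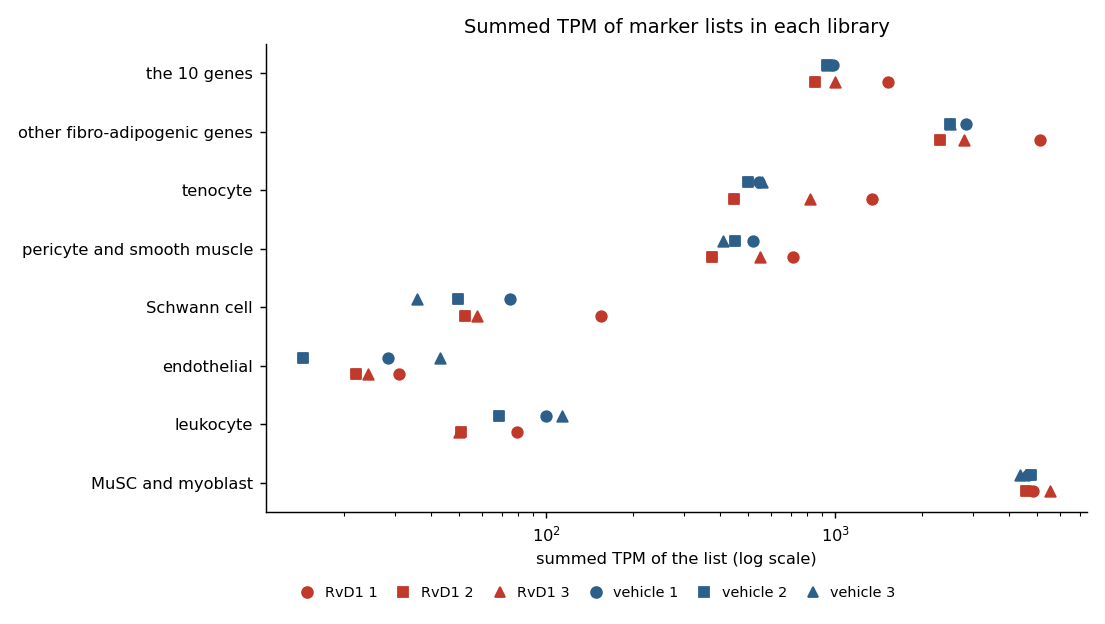
Summed TPM (horizontal axis, log scale) of the 10 genes and of 7 marker lists in each library, with RvD1 in red and vehicle in blue and a symbol for each replicate number. RvD1 replicate 1 is the rightmost point for the 10 genes, the other FAP genes, and the tenocyte, pericyte, and Schwann cell lists, whereas a vehicle library is the rightmost point for endothelial cells (42.8 TPM) and leukocytes (114 TPM).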

How the data were processed

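MuSCs of 3 RvD1-treated and 3 vehicle-treated mice were profiled by RNA-Seq with SmartSeq amplification and 76-base single reads. The authors aligned reads to mm10 with STAR 2.5.0a and ran RSEM. Its expected counts, deposited per gene, are unscaled estimates. The TPM and FPKM deposited by the authors are RSEM values relative to length and depth. In each file, 1 stray header line was removed.

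Expected counts were rounded and tested with edgeR 4.0.16 in R 4.3.3 (TMM factors, filterByExpr, quasi-likelihood test, Benjamini-Hochberg adjustment over 14494 genes, threshold 0.05). Standard errors were derived from the F statistic and the fold change. CPM used a prior count of 2 on the log scale. The fit was tested on simulated data. Alternatives were DESeq2 1.42.0, limma 3.58.1 with and without sva 3.50.0 (1 surrogate variable), other scaling factors, no filter, log2(TPM + 1), log2(TPM + 0.1), log2(FPKM + 1), a replicate block, and each library left out. Libraries sharing a replicate number come from different mice, so they were not treated as pairs. Their deviations correlated at 0.31, −0.0007, and 0.126, against a mean of −0.0734 for libraries with different numbers.

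The members and lists were chosen with earlier results of these data known. Named genes are the 10 members, the 2 most abundant genes of each gene list and the most abundant of each cell type list, 5 nearest profiles for Ly6a and 3 each for Pdgfra and Dcn (mean log2 CPM of at least 1), and the sorting markers. Any exception is marked. Of 180 list symbols, 179 were found. Positions and sequences are from GENCODE M21 (GRCm38, the assembly of mm10). Depth was 16148026 to 28149176 counts, and reads carry no molecular identifiers, so floors cover counting error only.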

Additional observations from a re-analysis of the deposited data

How the results depend on the processing

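In edgeR 0 of the 10 genes passed an adjusted p of 0.05, and each alternative run also gave 0. This includes the fit without a filter on low counts, in which 12 other genes were called. It also includes the replicate block, with which 0 of the genes were called and the smallest adjusted p was 0.791. With the block, 896 of all genes passed an unadjusted p of 0.05 in edgeR, against 503 without it. The block changed no call. Of 144 log2 fold changes of single genes under alternatives, 138 stayed within 1 SD of the value reported. This SD was that of the gene's log2 CPM within groups, a wide margin for genes that varied between libraries. It took in the fall of Dcn from 0.46 to 0.09 without RvD1 replicate 1, so the count is no measure of stability. The values that moved by more were of Ly6e, the steadiest gene, and of Dpt. Signs changed for Lum in 4 of 16 alternatives and for Dpt and Gsn in 1 each, the latter both without RvD1 replicate 1. Ly6e kept its sign, but its log2 fold change was −0.08 with library totals alone and −0.02 with log2(TPM + 1). The genes higher with RvD1 without overlap numbered 0 on TMM-scaled CPM, 1 in TPM, and 0 to 4 with 1 library left out, the 4 without RvD1 replicate 2. The shares of all genes were 4.8%, 8.89%, and, without RvD1 replicate 2, 12%. Those lower numbered 2, 1, and 2 to 3, the 3 without vehicle replicate 2. Here the shares of all genes were 4.83%, 2.52%, and, without vehicle replicate 2, 7.43%. Shares for the other libraries left out were not computed, and nothing is read from these counts. These settings for overlap were chosen after seeing the data. The log2 ratio of summed TPM was 0.24, 0.20 in FPKM, 0.18 without Gsn, and 0.52 without Gsn and the Ly6 genes. With 1 library left out it was −0.04 to 0.41 for the sum of all 10 genes and 0.13 to 0.78 for the sum without Gsn and the Ly6 genes, the latter a setting added after seeing the data. Clec3b, at 0 to 4 counts, could not be compared at this depth.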
